A study of Homo sapiens with 282 samples.

Results

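Described here are 8 genes grouped under KLF2, FOXO and lymphocyte quiescence. They are the forkhead factors FOXO1 and FOXO3, the Krüppel-like factors KLF2 and KLF6, and TSC22D3, S1PR1, BTG1 and TXNIP. They were chosen by symbol in the array's gene annotation, each gene was read from the probe set with the highest mean over all arrays, and they are 8 of 18239 genes measured. In a resting lymphocyte, FOXO factors sit in the nucleus while PI3K and AKT signalling is low, and they switch on genes that hold back growth and keep the cell circulating. KLF2 is among the genes that FOXO1 activates in lymphocytes, and KLF2 in turn activates S1PR1, the receptor for sphingosine 1-phosphate with which lymphocytes leave lymphoid tissue. TSC22D3, also called GILZ, is a leucine zipper protein induced by glucocorticoids and by FOXO3, BTG1 is an antiproliferative protein that recruits the CCR4-NOT deadenylase to mRNAs, and TXNIP restrains thioredoxin and glucose uptake. Several of these genes, among them KLF2, FOXO1, S1PR1 and BTG1, are recurrently mutated in diffuse large B cell lymphoma.

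The cells were OCI-LY3, an established human line of that lymphoma, of the activated B cell type. They were exposed in 96-well plates to 14 compounds for 6, 12 or 24 h, and total RNA of each well was hybridised to 1 array, which gave 282 arrays, 94 a time. Cycloheximide, which blocks translation, was used at 0.264 and 5 µM, the topoisomerase I inhibitor camptothecin at 0.01 and 0.31 µM, the mTOR inhibitor rapamycin at 13.8 and 22 µM, the histone deacetylase inhibitor trichostatin A at 0.114 and 0.143 µM, and H-7, Dihydrochloride, a protein kinase inhibitor called H-7 below, at 12.4 and 20.2 µM. The topoisomerase II poisons etoposide and doxorubicin hydrochloride were used at 0.811 and 0.812 µM and at 0.03 and 0.101 µM, the anthracycline aclacinomycin A at 0.036 and 0.105 µM, and the crosslinker mitomycin C at 0.553 and 2.56 µM. The chaperone inhibitor geldanamycin was used at 0.001 and 0.032 µM, the tubulin binder vincristine at 0.005 and 0.01 µM, the kinesin inhibitor monastrol at 50 and 100 µM, the myosin inhibitor blebbistatin at 10 and 100 µM, and the antifolate methotrexate at 100 µM. Each compound at each concentration had 3 arrays a time, except methotrexate with 6. Cells in medium alone (Media) had 2 arrays a time, and the vehicle, 1% DMSO, had 8. The 27 compound concentrations of a time were all compared with the same 8 DMSO arrays, so their differences share those arrays. Whether replicate wells were separate cultures is not stated, so p-values measure the spread between these wells, which may be technical.

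Array quality differed between times and bears on the precision of what follows. The upper quartile of the log2 values was 8.15 to 8.35 on the 94 arrays of 6 h, while the lowest arrays had 6.91 at 12 h and 6.92 at 24 h. By the limits used here, an upper quartile under 8 or a 3′ to 5′ difference of ACTB over 2 log2 units, 31 arrays of 12 h and 17 of 24 h were low-signal arrays, 4 and 1 of them DMSO. The median standard error of a difference of 3 arrays from DMSO was 0.0988 log2 units at 6 h, 0.299 at 12 h and 0.276 at 24 h. Member values differed with array signal: at 24 h the median of FOXO3 was 7.73 on the 17 low-signal arrays, against 9.53 on the other 77, while that of TXNIP was 5.72, against 4.73. Marker genes were ranked among all genes by their mean over all 282 arrays. Of the B cell genes checked, CD74 and IRF4 stood at the 99.1 and 99.4 percentile, PAX5 at 59.0 and BLK at 47.7. MS4A1, CD79A and CD79B stood at 31.1, 38.2 and 38.9. Of 5 genes each, those of T cells stood between 14.0 and 47.1 with CD2 highest, those of myeloid cells between 2.7 and 39.7, those of epithelial cells between 6.1 and 38.1 and those of fibroblasts between 29.7 and 72.0 with PDGFRA highest. MS4A1, CD79A and CD79B thus lay within the ranges of genes of other cell types.

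The promoter windows of KLF2, TSC22D3, BTG1 and S1PR1 are shown because these genes carry the main results below. They run from 250 bases before to 50 bases after an annotated start in RefSeq's annotation of GRCh38.p14, 5′ to 3′ on the gene's strand. KLF2 lies on chromosome 19 (window chr19:16324576-16324875, plus strand), S1PR1 on chromosome 1 (chr1:101236769-101237068, plus strand), BTG1 on chromosome 12 (chr12:92145797-92146096, minus strand), and the TSC22D3 window belongs to an internal start of the gene on chromosome X (chrX:107717013-107717312, minus strand). Capitals mark a MEF2 motif in KLF2, the forkhead motif GTAAACA on either strand and TATAAA in TSC22D3 and BTG1, and CCAAT on either strand in BTG1 and S1PR1.
KLF2: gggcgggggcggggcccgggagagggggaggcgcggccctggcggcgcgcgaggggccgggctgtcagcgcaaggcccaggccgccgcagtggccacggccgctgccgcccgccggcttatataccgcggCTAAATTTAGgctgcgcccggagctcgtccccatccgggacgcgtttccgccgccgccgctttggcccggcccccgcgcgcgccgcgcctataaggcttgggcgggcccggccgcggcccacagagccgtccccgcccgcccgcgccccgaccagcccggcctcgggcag
TSC22D3: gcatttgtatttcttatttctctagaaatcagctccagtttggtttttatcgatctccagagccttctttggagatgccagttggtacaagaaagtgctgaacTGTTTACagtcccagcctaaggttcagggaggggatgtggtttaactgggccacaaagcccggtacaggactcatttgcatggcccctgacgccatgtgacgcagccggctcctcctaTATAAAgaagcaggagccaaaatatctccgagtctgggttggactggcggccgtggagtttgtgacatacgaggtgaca
BTG1: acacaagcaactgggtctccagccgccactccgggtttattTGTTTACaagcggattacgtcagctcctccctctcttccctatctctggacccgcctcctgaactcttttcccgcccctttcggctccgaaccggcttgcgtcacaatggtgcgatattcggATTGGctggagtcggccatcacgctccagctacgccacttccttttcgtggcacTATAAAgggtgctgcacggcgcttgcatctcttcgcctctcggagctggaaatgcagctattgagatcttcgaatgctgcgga
S1PR1: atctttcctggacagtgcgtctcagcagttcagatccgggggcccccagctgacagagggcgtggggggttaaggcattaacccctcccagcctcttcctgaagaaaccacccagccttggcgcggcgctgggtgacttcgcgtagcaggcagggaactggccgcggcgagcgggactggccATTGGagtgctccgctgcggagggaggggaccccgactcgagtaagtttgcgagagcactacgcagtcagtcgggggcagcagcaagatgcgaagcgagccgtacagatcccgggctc
GTAAACA was present in 3.42% of the 35116 promoter windows searched and in 3 of the 15 windows of the 8 genes, those of BTG1, TSC22D3 and TXNIP with 1 each. It began 209 bases before the BTG1 start, 147 bases before this TSC22D3 start and 124 bases before the TXNIP start. TSC22D3 has 4 windows, and only the one shown held GTAAACA or TATAAA. The MEF2 motif was present in 2.99% of all windows and in 1 of the 15, that of KLF2, 120 bases before the start. CCAAT was present in 34.6% of all windows and in 6 of the 15, TATAAA in 11.5% and in 2 of the 15, and the E-box CACGTG in 7.26% and in 1 of the 15, of KLF6. The GC box GGGCGG was present in 45% of all windows and in 10 of the 15. The motifs in capitals did not overlap each other, and a match describes the letters of a window and not a bound site.

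In DMSO at 6 h, before any compound effect, log2 values averaged 9.53 ± 0.06 for FOXO1, 9.69 ± 0.15 for FOXO3, 5.92 ± 0.29 for KLF2, 10.18 ± 0.07 for KLF6, 8.65 ± 0.11 for TSC22D3, 10.08 ± 0.14 for S1PR1, 12.06 ± 0.11 for BTG1 and 4.58 ± 0.13 for TXNIP (SD, n = 8 arrays each). These are levels of different probe sets and do not rank the genes. The KLF2 probe set lay at the 54 percentile of all probe sets and the TXNIP one at 38.2, so both were read from dimmer probe sets than the other members. The other probe sets of KLF6, S1PR1 and TSC22D3 with clear signal moved with the one used, with r between 0.96 and 1.0 over the 29 group means of 6 h. For FOXO1 another bright probe set, at the 84.3 percentile, had r of 0.65 with the one used, and for FOXO3 those at 84.5 and 72.4 had r of 0.75 and 0.69. The 4 other TXNIP probe sets were dimmer and had r between 0.28 and 0.49, and the second KLF2 probe set, at 23.5, had r of 0.79.

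At 6 h the 8 genes were more often higher than lower than DMSO. Over 8 genes and 27 compound concentrations, 49 of 216 comparisons were called higher, or 22.7%, and 14 lower, or 6.48%, at a Benjamini-Hochberg adjusted p under 0.05 in limma. Over all genes, 7.02% of comparisons were called higher and 6.68% lower. The 8 genes were chosen with earlier results of these data known. Their shares against those of all genes, here and below, therefore describe the set and do not test it. TSC22D3 was called higher 14 times and never lower, KLF6 was higher 8 times and lower 3 times, KLF2 was higher 7 times and FOXO3 4 times with no lower call for either. S1PR1 was higher 6 times and lower 4 times, BTG1 higher 5 and lower 2, FOXO1 higher 4 and lower 5, and TXNIP higher in 1 of its 27 comparisons. Of the 63 calls, 40 held in all 20 alternative settings run, and the 23 others were lost in at least 1 of them, with differences of at most 0.50. Each array held the RNA of a whole well, so less RNA per cell and fewer cells that carry it cannot be told apart.

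**Figure D1:**
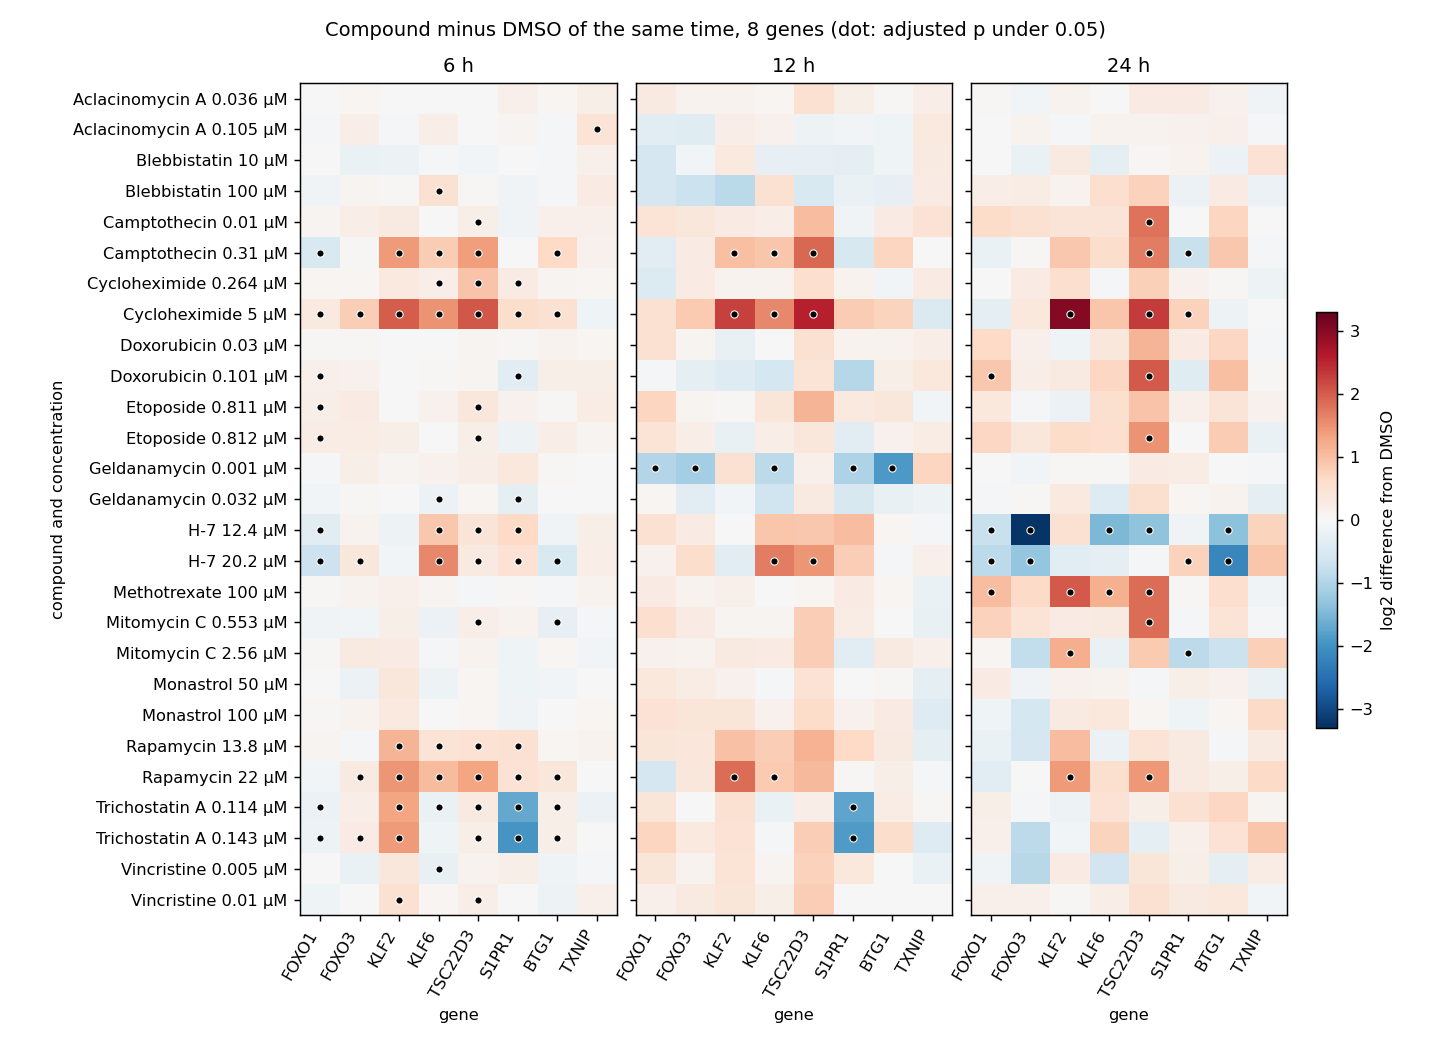
Log2 difference of each compound concentration (rows) from DMSO of the same time for the 8 genes (columns), with 1 panel per time, red for higher and blue for lower and a dot where the limma adjusted p was under 0.05. Dots are most frequent at 6 h, where 49 comparisons were called higher and 14 lower, and the red columns of KLF2, KLF6 and TSC22D3 are shared by cycloheximide, camptothecin and rapamycin.

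KLF2 was raised by cycloheximide, rapamycin, camptothecin and trichostatin A and by few other compounds. Under 5 µM cycloheximide KLF2 had log2 values of 8.20, 7.76 and 7.83, against 5.33 to 6.32 with a median of 5.96 in DMSO. All 3 cycloheximide arrays lay above all 8 DMSO arrays, a difference of 2.01 ± 0.13 (SE) or 4.02-fold (limma adjusted p = 2.36e-24). Under 22 µM rapamycin the values were 7.50, 7.24 and 7.38, a difference of 1.45 ± 0.13 (limma adjusted p = 1.96e-16). Under 0.31 µM camptothecin they were 7.35, 7.23 and 7.40, a difference of 1.41 ± 0.13 (limma adjusted p = 1.03e-16). Under 0.143 µM trichostatin A they were 7.38, 7.32 and 7.27, a difference of 1.40 ± 0.13 (limma adjusted p = 1.14e-16). Arrays of these last 3 groups overlapped each other and lay below the cycloheximide arrays and above every DMSO array. The lower concentrations of rapamycin and trichostatin A also raised KLF2, by 1.13 and 1.29. With the mean of both KLF2 probe sets all 6 calls held with smaller differences, 1.34 under 5 µM cycloheximide, 0.91 under 22 µM rapamycin, 0.91 under 0.31 µM camptothecin, 0.82 under 0.143 µM trichostatin A, and 0.64 and 0.81 under the lower rapamycin and trichostatin A concentrations. The call under 0.01 µM vincristine, a difference of 0.50, rested on arrays that overlapped DMSO and was lost when any 1 of its 3 replicates was left out. H-7 at 20.2 µM gave 5.58, 6.14 and 5.75, a difference of -0.10 with an interval from -0.36 to 0.16.

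KLF6, a zinc-finger factor of the same family and an early-response gene in many cell types, shared 3 of these compounds and added H-7. Under 20.2 µM H-7 it had log2 values of 11.81, 11.74 and 11.78, against 10.09 to 10.34 with a median of 10.17 in DMSO. That was the highest mean of the 29 groups, apart from the next group, and a difference of 1.59 ± 0.07 or 3.02-fold (limma adjusted p = 7.79e-36). Cycloheximide at 5 µM gave 11.66 on all 3 arrays, a difference of 1.48 ± 0.07 (limma adjusted p = 7.17e-33). Rapamycin at 22 µM gave 11.36, 11.26 and 11.07, a difference of 1.05, and camptothecin at 0.31 µM gave 11.01, 11.01 and 11.06, a difference of 0.84. Trichostatin A, which raised KLF2, did not raise KLF6: at 0.114 µM it had 10.01, 9.97 and 9.92, a difference of -0.21 (limma adjusted p = 0.00717) that was -0.09 and not called with the mean of all probe sets, and at 0.143 µM the difference was -0.15 (adjusted p = 0.0689). The lower concentrations of H-7, rapamycin and cycloheximide raised KLF6 by 0.90, 0.44 and 0.23, the last a call lost without replicate 1 or 2. Blebbistatin at 100 µM raised KLF6 by 0.52 and no other member, where 1.67% of all genes were higher and 0.921% lower. The small decreases under 0.032 µM geldanamycin and 0.005 µM vincristine, -0.19 and -0.23, did not hold when a replicate was left out.

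KLF6 and TSC22D3 also differed between Media and the vehicle. In Media at 6 h KLF6 had 10.72 and 10.74, above all 8 DMSO arrays, a difference of 0.55 ± 0.08 (limma adjusted p = 3.94e-08). TSC22D3 had 8.31 on both Media arrays, below all 8 DMSO arrays, a difference of -0.34 ± 0.07 (limma adjusted p = 2.07e-05). Over all genes, 11.7% were higher and 13.8% lower in Media than in DMSO at 6 h. At 6 h the other 6 members were not called between Media and DMSO, with differences from -0.19 for TXNIP to 0.02 for S1PR1.

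TSC22D3 was raised by the widest range of compounds. Under 5 µM cycloheximide it had 10.69, 10.70 and 10.74, against 8.49 to 8.81 with a median of 8.65 in DMSO, a difference of 2.06 ± 0.06 or 4.16-fold (limma adjusted p = 1.01e-48). Camptothecin at 0.31 µM gave 10.03, 10.07 and 10.03, a difference of 1.39, and rapamycin at 22 µM gave 9.98, 9.91 and 9.98, a difference of 1.30. Cycloheximide at 0.264 µM gave 9.58, 9.63 and 9.57, a difference of 0.94 ± 0.06 (limma adjusted p = 3.57e-24). These 4 groups took the 4 highest ranks among 29 groups, and neighbouring ranks did not overlap. Smaller differences were called under 13.8 µM rapamycin (0.47), H-7 at 12.4 µM (0.43) and 20.2 µM (0.30), etoposide at 0.811 µM (0.39) and trichostatin A at 0.114 µM (0.29). The calls of about 0.2 under 0.01 µM camptothecin, 0.812 µM etoposide, 0.553 µM mitomycin C, 0.143 µM trichostatin A and 0.01 µM vincristine were each lost when some replicate was left out.

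**Figure D2:**
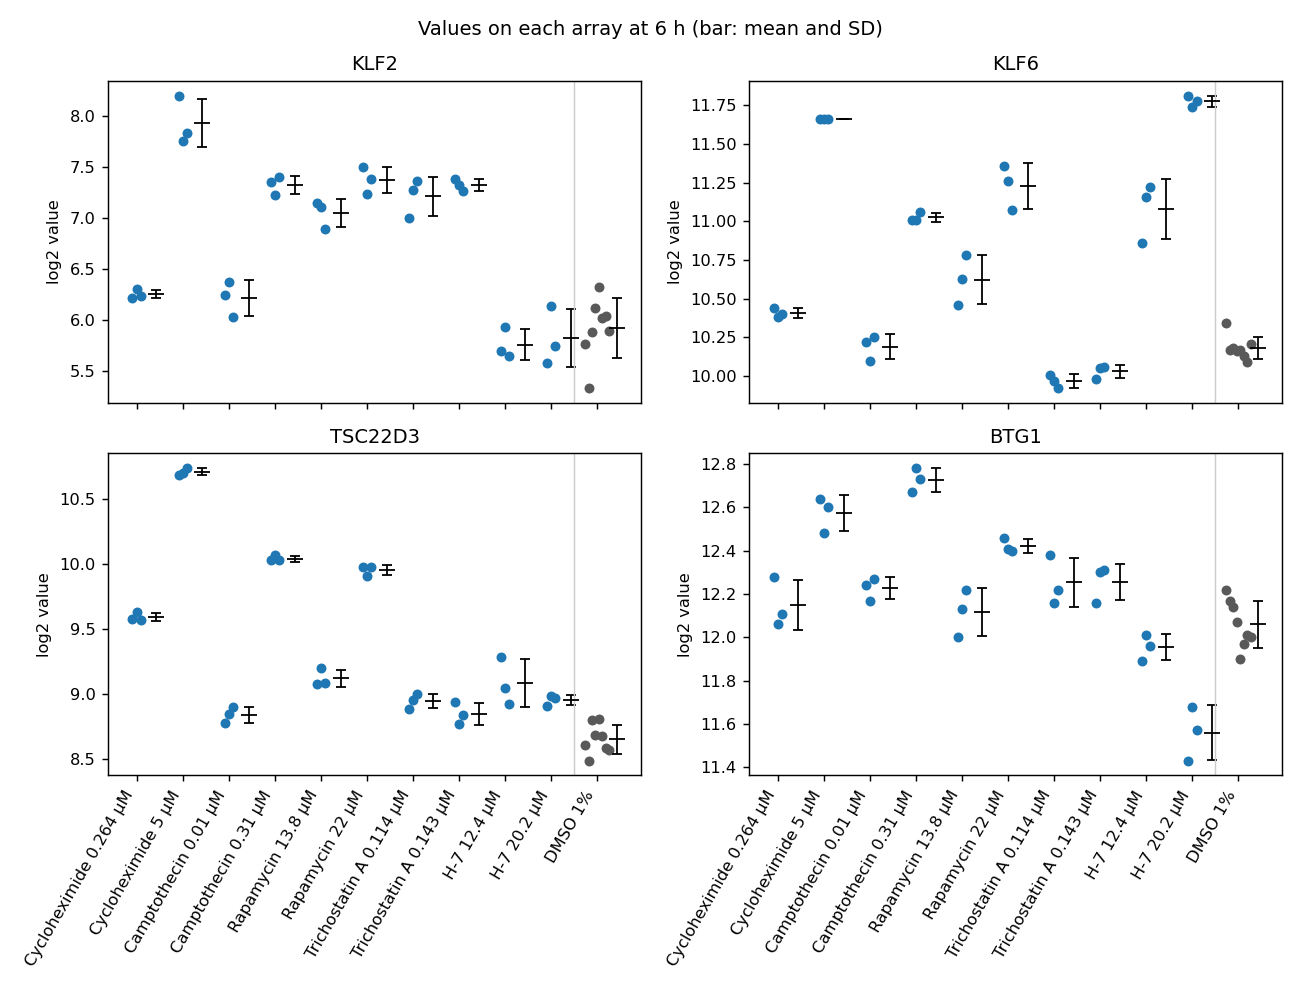
Log2 value of KLF2, KLF6, TSC22D3 and BTG1 on each array at 6 h (points) under both concentrations of 5 compounds, with DMSO at the right, and the mean with its SD beside them. KLF2 is high under cycloheximide 5 µM, camptothecin 0.31 µM, rapamycin and trichostatin A, KLF6 is highest under H-7 20.2 µM, and TSC22D3 is highest under cycloheximide 5 µM.

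FOXO1 was lower under H-7 and camptothecin and higher under cycloheximide, and FOXO3 was higher under cycloheximide and H-7. FOXO1 was lowest under 20.2 µM H-7, with 8.85, 8.78 and 8.94, against 9.47 to 9.66 with a median of 9.53 in DMSO. All 3 arrays lay below all DMSO arrays, a difference of -0.68 ± 0.06 (limma adjusted p = 5.15e-19). With 0.31 µM camptothecin FOXO1 had 9.12, 8.92 and 9.03, a difference of -0.51 ± 0.06 (limma adjusted p = 2.14e-13), in the same wells in which KLF2 and TSC22D3 were raised. FOXO1 was also lower under 12.4 µM H-7 (-0.37) and under trichostatin A at 0.114 and 0.143 µM (-0.19 and -0.16). The call at 0.143 µM was lost without replicate 1. With the mean of all FOXO1 probe sets the difference under 20.2 µM H-7 was -0.29 and still called, and both trichostatin A calls were lost, at -0.11 and -0.09. Cycloheximide at 5 µM raised FOXO1, with 9.88, 9.79 and 9.88, a difference of 0.32 ± 0.06 (limma adjusted p = 1.52e-06). The increases under etoposide, 0.19 and 0.24, and doxorubicin, 0.17, were lost when some replicate was left out. FOXO3 had 10.62, 10.45 and 10.46 under 5 µM cycloheximide, against 9.36 to 9.86 with a median of 9.71 in DMSO, a difference of 0.82 ± 0.10 (limma adjusted p = 2.4e-11). Under 20.2 µM H-7, which lowered FOXO1, FOXO3 was raised by 0.37 ± 0.10 (limma adjusted p = 0.000881). The FOXO3 increase under 0.143 µM trichostatin A, 0.28, was lost without replicate 2. Over the 29 group means of 6 h, FOXO1 and FOXO3 had r of 0.14.

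S1PR1 did not follow KLF2 in every treatment. Under 0.143 µM trichostatin A, where KLF2 was raised by 1.40 log2 units on the probe set used and by 0.82 over both, S1PR1 had 8.14, 8.16 and 8.09, against 9.91 to 10.29 with a median of 10.08 in DMSO. That was a difference of -1.95 ± 0.08, or 3.85-fold lower (limma adjusted p = 3.18e-36). At 0.114 µM it had 8.27, 8.44 and 8.44, a difference of -1.69 ± 0.08 (limma adjusted p = 3.59e-32). The arrays of both trichostatin A groups lay below every other array of 6 h, and the ranges of the 2 concentrations did not overlap. In the other direction, S1PR1 was raised by H-7, which left KLF2 near its DMSO level: 12.4 µM gave 10.89, 10.69 and 10.62, a difference of 0.66 ± 0.08 (limma adjusted p = 2.06e-10). Rapamycin and 5 µM cycloheximide raised both genes, S1PR1 by 0.50 at 13.8 µM and 0.48 at 22 µM rapamycin and by 0.58 under cycloheximide. KLF2 was raised by 0.31 µM camptothecin, while S1PR1 had 10.13, 10.09 and 9.99, a difference of -0.01 with an interval from -0.17 to 0.16. Doxorubicin at 0.101 µM lowered S1PR1 by 0.37 log2 units (limma adjusted p = 0.00093), and 0.032 µM geldanamycin by 0.33, a call lost without replicate 1 or 2. Cycloheximide at 0.264 µM gave 0.27, lost without replicate 2.

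BTG1 was higher under camptothecin, cycloheximide and rapamycin and lower under H-7. With 0.31 µM camptothecin BTG1 had 12.67, 12.78 and 12.73, against 11.90 to 12.22 with a median of 12.04 in DMSO, a difference of 0.67 ± 0.07 (limma adjusted p = 4e-15). With 5 µM cycloheximide BTG1 had 12.64, 12.48 and 12.60, a difference of 0.51, and 22 µM rapamycin gave 12.46, 12.41 and 12.40, a difference of 0.36. These 3 groups held the 3 highest ranks and did not overlap their neighbours. H-7 at 20.2 µM gave 11.43, 11.68 and 11.57, below all DMSO arrays, a difference of -0.50 ± 0.07 (limma adjusted p = 3.15e-10). The increases under trichostatin A, 0.19 and 0.20, overlapped DMSO, and the decrease under 0.553 µM mitomycin C, -0.27, was lost without replicate 2 or 3. TXNIP differed little among groups: its 29 means spanned 0.64 log2 units, all 28 neighbouring ranks overlapped, and its only call, 0.45 under 0.105 µM aclacinomycin A (limma adjusted p = 0.0475), was lost in 10 of 19 alternatives.

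By compound, 5 µM cycloheximide raised 7 of the 8 genes at 6 h, all but TXNIP, whose values were 4.33, 4.42 and 4.57 and whose difference was -0.14. Over all genes 16.5% were higher and 16.8% lower in that comparison, and the median difference was 0.70 over the 8 genes and -0.03 over all genes. Rapamycin at 22 µM raised 6, KLF2, KLF6, TSC22D3, FOXO3, S1PR1 and BTG1, where 13% of all genes were higher and 13.6% lower. The FOXO3 call among them did not hold without replicate 1 or without replicate 2. Camptothecin at 0.31 µM raised 4 and lowered 1, where 27% of all genes were higher and 19.9% lower. H-7 at 20.2 µM raised 4 and lowered 2, where 23% of all genes were higher and 27% lower. Trichostatin A at 0.143 µM raised 4 and lowered 2, where 22.3% were higher and 22.4% lower. In the comparisons with camptothecin, H-7 and trichostatin A a large part of all genes was called too, and the counts of 8 genes are to be read against those shares. At the lower concentrations, 13.8 µM rapamycin raised 4 members (10.7% of all genes higher, 7.11% lower), 0.264 µM cycloheximide raised 3 (5.32% and 4.44%), 12.4 µM H-7 raised 3 and lowered 1 (15.5% and 18%), and 0.114 µM trichostatin A raised 3 and lowered 3 (22.4% and 21.9%). For compounds with 1 or 2 calls, the shares of all genes higher and lower were 2.09% and 1.56% under 0.01 µM camptothecin, 3.4% and 3.74% under 0.101 µM doxorubicin, 3.56% and 2.78% under 0.811 µM etoposide, and 2.48% and 2.09% under 0.812 µM etoposide. They were 6.73% and 9.75% under 0.032 µM geldanamycin, 0.356% and 0.581% under 0.553 µM mitomycin C, 1.8% and 0.806% under 0.005 µM vincristine, 0.532% and 0.417% under 0.01 µM vincristine, and 0.345% and 0.428% under 0.105 µM aclacinomycin A. No limma call was made for a member under methotrexate, monastrol, 0.036 µM aclacinomycin A, 10 µM blebbistatin, 0.03 µM doxorubicin, 0.001 µM geldanamycin or 2.56 µM mitomycin C at 6 h. At an unadjusted p under 0.05 methotrexate also had 0 of the 8, with 1.17% of all genes called higher and 0.587% lower.

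Most members were not called between the 2 concentrations of a compound. Tested directly at 6 h, over 13 compounds and 8 genes, the higher concentration was above the lower in 17 of 104 comparisons, or 16.3%, and below it in 6, or 5.77%. Over all genes the shares were 3.87% and 4.63%. Cycloheximide accounted for 7 of them: KLF2 was higher at 5 than at 0.264 µM by 1.68 ± 0.16, KLF6 by 1.25 ± 0.08 and TSC22D3 by 1.12 ± 0.07 (limma adjusted p of 2.26e-15, 1.48e-22 and 1.86e-24; 10.4% of all genes higher, 10.8% lower). For camptothecin, 0.31 against 0.01 µM differed by 1.11 for KLF2, 0.84 for KLF6, 1.20 for TSC22D3, 0.50 for BTG1 and -0.61 for FOXO1 (20.9% of all genes higher, 18.2% lower). Between the rapamycin concentrations, KLF6, TSC22D3 and BTG1 were higher at 22 than at 13.8 µM by 0.61, 0.83 and 0.31, the last a call lost without replicate 1 or 2, while KLF2 and S1PR1 were not called between the concentrations (2.4% and 3.76%). For H-7, KLF6 was higher by 0.70 at 20.2 than at 12.4 µM, FOXO1 lower by 0.31 log2 units and BTG1 lower by 0.39 log2 units (11.3% and 19.4%). The FOXO1 differences between concentrations were -0.03 for H-7, not called, and -0.34 for camptothecin with the mean of all probe sets. Geldanamycin at 0.032 µM lowered S1PR1 relative to 0.001 µM by 0.66 log2 units and KLF6 by 0.34 log2 units (3.68% and 6.21%), the KLF6 call being lost without replicate 2. The S1PR1 mean was 10.41 at 0.001 µM, above the DMSO mean of 10.08, and 9.75 at 0.032 µM, so the called difference spans both sides of DMSO. BTG1 was higher by 0.34 at 2.56 than at 0.553 µM mitomycin C, with the lower concentration below DMSO, a call lost without any 1 of the 3 replicates. No member was called between the concentrations of trichostatin A, which lie close together, or of etoposide. At 12 h 4 of 104 comparisons were higher and 0 lower, against 1.88% and 0.609% of all genes, and at 24 h 6 were higher and 1 lower, against 1.08% and 1.61%.

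**Figure D3:**
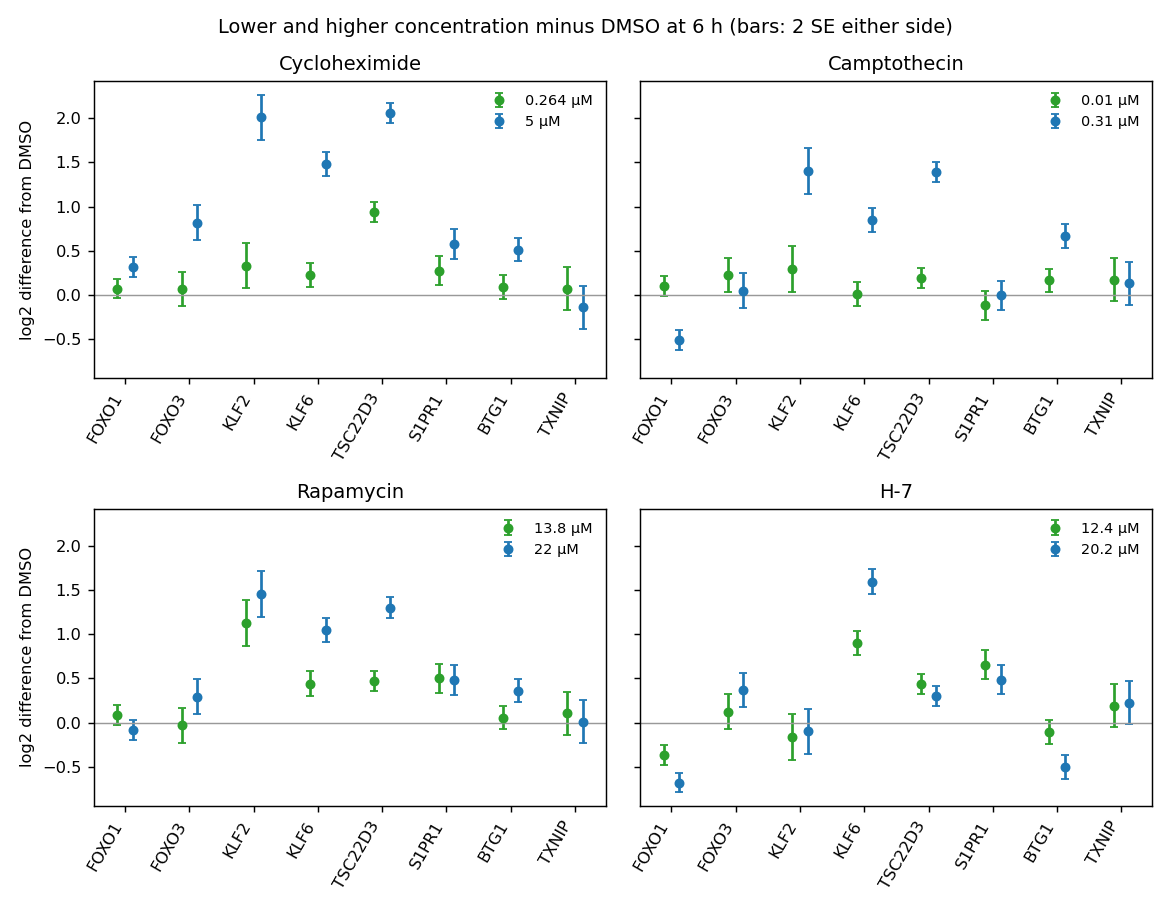
Log2 difference from DMSO at 6 h for the 8 genes under the lower (green) and the higher (blue) concentration of 4 compounds, with bars of 2 SE either side. Under cycloheximide and camptothecin the differences of KLF2 and TSC22D3 are larger at the higher concentration, under rapamycin KLF2 is high at both, and under H-7 KLF6 rises while FOXO1 falls.

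The genes around the members are given by 8 lists, read against the shares of all genes in the same comparisons. These were 16.5% higher and 16.8% lower under 5 µM cycloheximide, 13% and 13.6% under 22 µM rapamycin, 27% and 19.9% under 0.31 µM camptothecin, 23% and 27% under 20.2 µM H-7, and 22.3% and 22.4% under 0.143 µM trichostatin A, with medians of -0.03, -0.01, 0.06, 0.03 and -0.01. Of 16 other genes of the KLF family list, 5 were higher and 1 lower under cycloheximide, 3 and 0 under rapamycin, 5 and 4 under camptothecin, 5 and 2 under H-7, and 3 and 6 under trichostatin A, with medians from -0.04 to 0.12. KLF4, which restrains lymphocyte proliferation, was higher under camptothecin (1.19), rapamycin (0.52) and cycloheximide (0.48) and lower under trichostatin A (-0.59), and KLF12 was lower by 2.79 log2 units under camptothecin. Of 26 other FOXO targets, 8 were higher and 5 lower under cycloheximide, 11 and 3 under rapamycin, 12 and 7 under camptothecin, 7 and 10 under H-7, and 12 and 8 under trichostatin A, with medians from -0.07 to 0.16. SESN1, a stress sensor upstream of mTOR, rose by 2.38 under camptothecin and 1.89 under H-7, with 0.08 under rapamycin, and TNFSF10, the death ligand TRAIL, rose by 1.82 under trichostatin A. Of 20 other genes of the PI3K, AKT and FOXO control list, 8 were higher and 4 lower under cycloheximide, and 7 and 1 under rapamycin. The counts were 6 and 11 under camptothecin, 6 and 6 under H-7, and 8 and 6 under trichostatin A. Medians ran from -0.31 under camptothecin to 0.12 under cycloheximide. PIK3CB, a catalytic subunit of PI3K, was lower under camptothecin by 1.63 log2 units, and SGK1, a kinase that phosphorylates FOXO, was higher by 2.22.

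Of 19 other genes of the glucocorticoid receptor and TSC22 list, 10 were higher and 1 lower under cycloheximide, 9 and 3 under rapamycin, 9 and 5 under camptothecin, 3 and 8 under H-7, and 9 and 5 under trichostatin A, with medians from -0.10 under H-7 to 0.22 under cycloheximide. Of 21 trafficking genes around S1PR1, 6 were higher and 1 lower under cycloheximide, 5 and 2 under rapamycin, 6 and 2 under camptothecin, 3 and 6 under H-7, and 5 and 9 under trichostatin A, with medians from -0.07 to 0.16. RGS2 and RGS1, which damp signals of G protein coupled receptors, rose under trichostatin A by 1.30 and 1.34, while S1PR1 fell. Of 15 other genes of the BTG, TOB and CCR4-NOT list, 7 were higher and 3 lower under cycloheximide, 1 and 4 under rapamycin, 4 and 6 under camptothecin, 4 and 8 under H-7, and 3 and 9 under trichostatin A, with medians from -0.33 under H-7 to 0.16 under cycloheximide. TOB2, a relative of BTG1, rose by 1.33 under camptothecin, and CNOT6L, a deadenylase, fell by 1.14. Of 14 other genes of the arrestin domain and glucose sensing list, 5 were higher and 3 lower under cycloheximide, 1 and 4 under rapamycin, 8 and 4 under camptothecin, 2 and 6 under H-7, and 6 and 7 under trichostatin A, with medians from -0.03 to 0.23. ARRDC4, a relative of TXNIP, rose by 1.49 under cycloheximide, where TXNIP was not called, and by 1.11 under trichostatin A, and ARRDC3 fell by 1.02 under trichostatin A. Of 27 other quiescence genes, 7 were higher and 7 lower under cycloheximide, 7 and 7 under rapamycin, 9 and 11 under camptothecin, 5 and 16 under H-7, and 8 and 12 under trichostatin A, with medians from -0.26 under H-7 to 0.07 under camptothecin. FOXP1, a forkhead factor of resting B cells, rose by 0.92 under H-7, and SLFN5 rose by 0.94 under camptothecin.

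The genes most like each member over the 29 group means of 6 h, DMSO and Media among them, were taken by Pearson's r. This is a description only, of points that share array processing. KLF2 was closest to BCL6 (0.91), DUSP10 (0.90) and MAK (0.88), and KLF6 to ZC3H12D (0.91), RHOG (0.87) and BHLHE40 (0.87). TSC22D3 was closest to PPP1R15A (0.90), H3C4 (0.90) and H2BC8 (0.87), and S1PR1 to IL15RA, SNW1 and ELK3 (0.95 each). BTG1 was closest to ZNF773 (0.89), GTF2F1 (0.84) and ARIH2OS (0.83), FOXO1 to MBTPS2 (0.88), ZNF346 (0.87) and DDX52 (0.86), FOXO3 to RYBP (0.82), ZNF331 (0.81) and ZNF654 (0.81), and TXNIP to RPL10 (0.75), RASGRF1 (0.74) and IRX2-DT (0.74). Among the members, KLF2 had r of 0.75 with TSC22D3 and 0.68 with BTG1, and KLF6 had 0.64 with TSC22D3 and 0.51 with S1PR1. TSC22D3 had 0.64 with BTG1. FOXO3 had 0.56 with KLF6, 0.56 with TSC22D3, 0.45 with KLF2 and 0.4 with BTG1, and KLF2 had 0.32 with KLF6. The remaining pairs had r of 0.28 or less, many of them near 0 or negative. KLF2 had r of 0.04 with FOXO1, -0.24 with S1PR1 and -0.42 with TXNIP. FOXO1 had 0.04 with S1PR1 and -0.38 with KLF6.

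At 12 h fewer differences passed the test, on arrays with a larger spread. Of 216 comparisons 10 were called higher, or 4.63%, and 7 lower, or 3.24%, against 1.17% and 1.64% over all genes. Cycloheximide at 5 µM kept KLF2 at 7.70, 7.69 and 7.91, against 4.95 to 6.06 in DMSO, a difference of 2.26 ± 0.28 (limma adjusted p = 3.4e-08). TSC22D3 was higher there by 2.57 ± 0.35 and KLF6 by 1.58 ± 0.26, where 2.13% of all genes were higher and 0.8% lower. Camptothecin at 0.31 µM still raised KLF2, KLF6 and TSC22D3, by 0.99, 0.93 and 1.90 (4.85% and 4.28%), and the calls of KLF2 and KLF6 were lost without replicate 1 or 3. Rapamycin at 22 µM raised KLF2 and KLF6, by 1.85 and 0.85 (1.96% and 3%), the KLF6 call being lost without replicate 1 or 3 and without DMSO replicate 1, 2 or 4. H-7 at 20.2 µM raised KLF6 and TSC22D3, by 1.69 and 1.47 (1.78% and 1.54%), the TSC22D3 call being lost without replicate 1 or 3 and its difference being 0.95 without the low-signal arrays. S1PR1 stayed low under trichostatin A, with 8.46, 7.78 and 7.72 at 0.143 µM, against 9.30 to 10.17 in DMSO, a difference of -1.87 ± 0.34 (limma adjusted p = 3.59e-05; 6.9% and 3.6%), and at 0.114 µM the difference was -1.74 (3.76% and 4.04%). The other 5 lower calls were all under 0.001 µM geldanamycin (5.32% and 22.7%) and rested on a low-signal array, replicate 2, on which BTG1 read 6.65, against 11.97 and 12.08 on the other 2. Without the low-signal arrays, 23 compound concentrations remained, and 32 of 184 comparisons were higher and 6 lower, with 4.68% and 4.08% over all genes. No member was then called under 0.001 µM geldanamycin. Rapamycin at 22 µM then had 1 array, assumed to vary as other groups do. On it KLF2 was not called, with a difference of 0.92, against 1.85 on all 3 arrays, and KLF6 and TSC22D3 differed by 0.87 and 1.34 (5.41% and 7.79%), both called with no replicate of their own. With the mean of both probe sets KLF2 differed at 12 h by 1.42 under cycloheximide, 0.96 under rapamycin and 0.57 under camptothecin, all still called.

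At 24 h methotrexate and the drugs that damage DNA were prominent among the higher calls, and most lower calls were under H-7. Of 216 comparisons 17 were called higher, or 7.87%, and 10 lower, or 4.63%, against 2.45% and 3.34% over all genes. Methotrexate, with no member called at 6 or 12 h, raised 4 genes, where 3.42% of all genes were higher and 1.32% lower. KLF2 had 7.35 to 8.14 with a median of 7.87 on the 6 methotrexate arrays, against 4.72 to 6.13 with a median of 5.85 in DMSO, a difference of 2.03 ± 0.25 or 4.09-fold (limma adjusted p = 3.9e-09). KLF6 had 11.58 to 11.70, against 10.27 to 10.59, a difference of 1.17 ± 0.27 (limma adjusted p = 0.00194). TSC22D3 had 8.57 to 8.84, against 5.61 to 7.27, a difference of 1.84 ± 0.30 (limma adjusted p = 5.31e-06). FOXO1 had 10.46 to 10.67, against 8.90 to 9.80, a difference of 1.01 ± 0.21 (limma adjusted p = 0.000442). No methotrexate array overlapped DMSO for these 4 genes, and none was a low-signal array. The numbers of the 6 methotrexate arrays run from 1 to 3 with each used on 2 arrays, and with the arrays of a number averaged 3 of the 4 calls held, while KLF6 had a limma adjusted p of 0.0525. With the mean of both probe sets KLF2 differed by 1.23.

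TSC22D3 was called higher at 24 h under both camptothecin concentrations and under 1 of the 2 concentrations each of doxorubicin, etoposide and mitomycin C. Its DMSO mean was itself lower at later times, 8.655 at 6 h, 7.331 at 12 h and 6.871 at 24 h. Doxorubicin at 0.101 µM gave 8.86, 8.90 and 8.95, a difference of 2.03 ± 0.38 (limma adjusted p = 6.11e-05), where 3% of all genes were higher and 3.07% lower. Mitomycin C at 0.553 µM gave 8.84, 8.44 and 8.88, a difference of 1.85 (0.998% of all genes higher, 0.132% lower). Camptothecin gave differences of 1.78 at 0.01 µM and 1.69 at 0.31 µM (0.981% and 2.8% of all genes higher, 0.208% and 5.41% lower), and 0.812 µM etoposide gave 1.48 (0.927% higher, 0.526% lower). It was not called under 0.811 µM etoposide, nearly the same concentration, with 6.49 on a low-signal array and 8.60 and 8.34 on the others (adjusted p = 0.173), nor under 0.03 µM doxorubicin, with 7.93, 8.09 and 7.99, a difference of 1.13 (adjusted p = 0.169). Without the low-signal arrays both were called in limma, at 1.42 and 0.95. Without replicate 3 the calls under mitomycin C, 0.01 µM camptothecin and etoposide were lost, with adjusted p of 0.0611, 0.0526 and 0.129, and that under etoposide was also lost without replicate 1 and without DMSO replicate 7, a low-signal array. S1PR1 fell by 0.73 under 0.31 µM camptothecin, a call lost without replicate 1 and with the mean of all probe sets. At 6 h the same 0.101 µM doxorubicin had left TSC22D3 at a difference of 0.09. The mean of TSC22D3 under this drug was 8.75 at 6 h and 8.90 at 24 h. The drug level thus changed little, while the DMSO level was lower at 24 h. Doxorubicin also raised FOXO1, to 10.50, 10.45 and 10.45, a difference of 0.90 ± 0.26 (limma adjusted p = 0.0207), which was lost without replicate 1 and without DMSO replicate 7. Under 2.56 µM mitomycin C, replicate 2 was a low-signal array with a TSC22D3 value of 5.22, against 8.97 and 9.01 on the other 2, and only KLF2 (1.21) was called higher and S1PR1 (-0.85) lower (7.77% and 18.1%), the S1PR1 call being lost without that array when the other low-signal arrays stayed in.

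**Figure D4:**
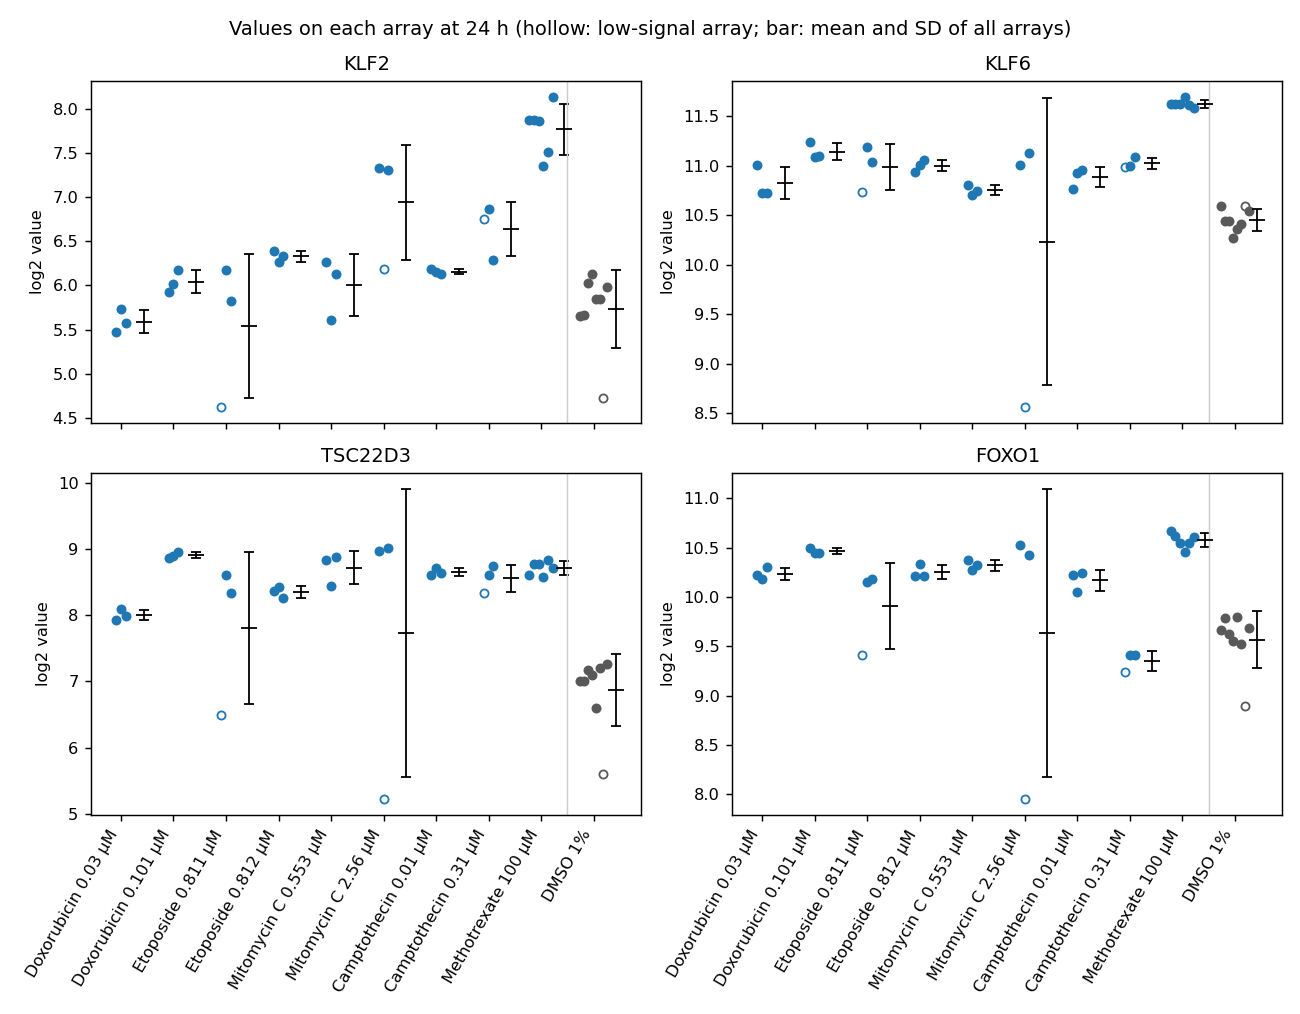
Log2 value of KLF2, KLF6, TSC22D3 and FOXO1 on each array at 24 h (points, hollow for low-signal arrays) under 4 DNA-damaging drugs and methotrexate, with DMSO at the right, and the mean with its SD over all arrays beside them. TSC22D3 lies between 8.86 and 8.95 under 0.101 µM doxorubicin, above DMSO, and KLF2 lies between 7.35 and 8.14 under methotrexate.

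Leaving out the 17 low-signal arrays of 24 h gave 78 higher and 10 lower calls in 208 comparisons, with 8.77% and 9.45% over all genes. Of 26 compound concentrations, KLF6 was then higher in 18 and lower in 1, and BTG1 higher in 15 and lower in 1. TSC22D3 was higher in 14, and FOXO3 higher in 11 and lower in 1. Calls of KLF6 and BTG1 thus also lay under compounds not described in this paragraph. Under 0.101 µM doxorubicin BTG1, KLF6, FOXO1, TSC22D3 and FOXO3 were then higher by 1.00, 0.71, 0.80, 1.85 and 0.25, and S1PR1 was lower by 0.48 log2 units (15.9% of all genes higher, 19.9% lower). Under 2.56 µM mitomycin C, 6 members were higher, among them TSC22D3 by 1.94, KLF2 by 1.44 and FOXO1 by 0.82, and S1PR1 fell by 0.46 (14.2% and 15.6%). Under 0.812 µM etoposide 6 members were higher, with 1.30 for TSC22D3 and 0.83 for BTG1 (11.4% and 13.6%). Under methotrexate FOXO3 and BTG1 joined the other 4, by 0.67 and 0.56 (15% and 20.6%). Camptothecin at 0.31 µM raised TSC22D3, BTG1, KLF2 and KLF6 by 1.62, 0.89, 0.70 and 0.61, and lowered FOXO1 by 0.25 and S1PR1 by 0.71 log2 units (18.6% and 15.4%). FOXO1 was thus lower under the higher camptothecin concentration at 6 h and at 24 h on these arrays, and higher by 0.51 under 0.01 µM at 24 h (9.75% and 11.4%).

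Cycloheximide at 5 µM still gave the highest KLF2 values at 24 h, 9.29, 8.74 and 8.30, a difference of 3.04 ± 0.32 or 8.23-fold (limma adjusted p = 7.12e-11). The arrays with 9.29 and 8.30 were low-signal arrays, and on the remaining array alone, assumed to vary as other groups do, the difference was 2.86 (19.3% and 15.5%). With the mean of both KLF2 probe sets it was 1.40 over the 3 arrays and still called. TSC22D3 and S1PR1 were higher in the same comparison by 2.31 and 0.75, where 5.97% of all genes were higher and 7.52% lower. With the mean of all probe sets TSC22D3 differed by 1.16, and the S1PR1 call was lost. Rapamycin at 22 µM raised KLF2 by 1.40 and TSC22D3 by 1.43 (1.06% and 1.44%), and both calls were lost without replicate 3, that of TSC22D3 also without replicate 1. These differences were 0.73 and 0.95 with the mean of all probe sets, both still called. H-7 at 12.4 µM had 3 low-signal arrays and 5 lower calls, among them FOXO3 with 6.77, 5.94 and 5.77, against 9.23 to 9.64 in DMSO (27.1% of all genes higher, 31.9% lower). H-7 at 20.2 µM had 1 low-signal array, replicate 3, and lower calls for BTG1 (-2.16), FOXO3 (-1.28) and FOXO1 (-0.85), while S1PR1 was higher by 0.75 (7.17% and 13.5%). Without that array BTG1 was lower by 0.37 log2 units and FOXO1 by 0.45, S1PR1 was higher by 0.32, FOXO3 was not called, and KLF2 was lower by 0.92 log2 units (9.73% and 11.1%).

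The change of a response with time was tested as the difference at 24 h minus the difference at 6 h for the higher concentration of each compound. It was called for 10 of 112 comparisons, 6 higher and 4 lower, 5.36% and 3.57%, against 1.09% and 2.12% over all genes. Under 0.143 µM trichostatin A, S1PR1 was within the DMSO range at 24 h: the group had 10.14, 10.50 and 10.54, against 9.71 to 10.57 in DMSO, and the 2 differences, 0.17 at 24 h and -1.95 at 6 h, differed by 2.12 ± 0.33 (limma adjusted p = 2.11e-07; 3.57% and 6.24%). KLF2 moved the other way, with 5.66, 5.60 and 5.70 at 24 h, against 4.72 to 6.13 in DMSO, and its differences of -0.08 at 24 h and 1.40 at 6 h differed by -1.48 ± 0.36 (limma adjusted p = 0.00193). The larger differences under methotrexate at 24 h passed the same test for KLF2 (1.86), TSC22D3 (1.90), KLF6 (1.09) and FOXO1 (0.97), with 2.01% and 0.499% over all genes. For TSC22D3 the DMSO mean was 8.655 at 6 h and 6.871 at 24 h, and the methotrexate median at 24 h was 8.745. Its time differences thus went with a lower DMSO level at 24 h. The FOXO1 call, at an adjusted p of 0.0488, was lost in 12 of 20 alternatives, among them without any 1 of the 8 DMSO arrays, without replicate 1 or 3 and with the arrays of a number averaged. The KLF6 call was lost without replicate 1 and with that averaging. That of TSC22D3 under doxorubicin was 1.94 (0.669% and 0.455%) and was lost without replicate 3. H-7 gave lower values at 24 h than at 6 h for KLF6 (-1.92), FOXO3 (-1.65) and BTG1 (-1.66) (4.47% and 8.28%). Without low-signal arrays these were -1.37, -0.62 and 0.13, of which the last was not called, and the FOXO3 call was lost without replicate 3. The labels do not say whether the arrays of a time were processed together, so time and processing cannot be told apart, and each difference was therefore taken from DMSO of its own time.

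**Figure D5:**
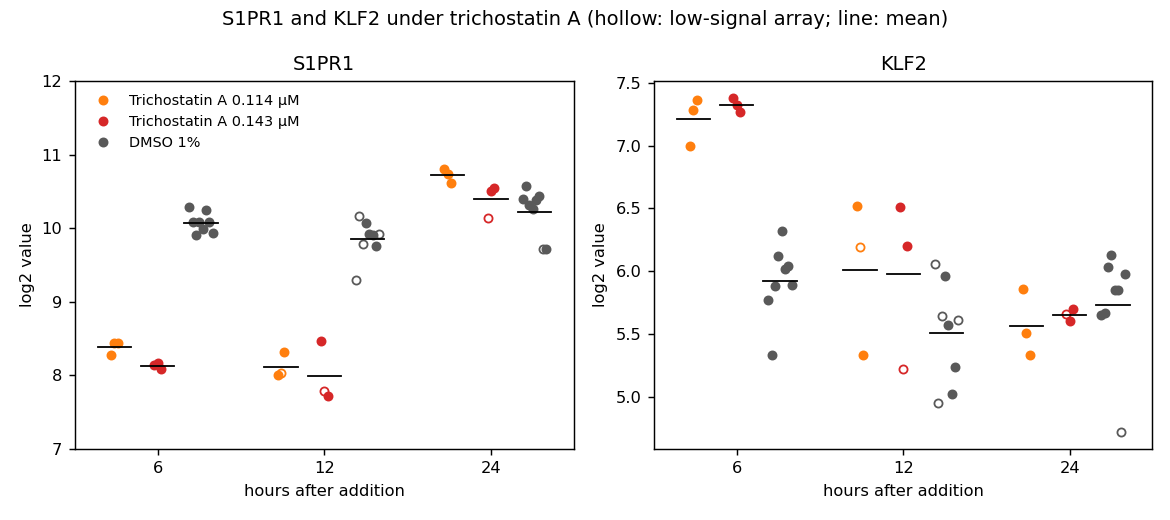
Log2 value of S1PR1 (left) and KLF2 (right) on each array under 0.114 and 0.143 µM trichostatin A and in DMSO at 6, 12 and 24 h (points, hollow for low-signal arrays; lines, means). S1PR1 lies near 8 under trichostatin A at 6 and 12 h and at the DMSO level or above at 24 h, and KLF2 is above DMSO only at 6 h on every array.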

How the data were processed

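Per the labels, RNA of OCI-LY3 wells was measured on the Affymetrix array HT HG-U219, 1 array a well. The deposited values are log2 intensities of 49386 probe sets, made by the authors with RMA per the submitters' processing notes; the version and settings are not given in the sources used here. RMA draws the probe values of arrays to a shared distribution, so a change common to most genes can be hidden, and it compresses differences of dim probe sets. The deposited probe set values still differed between arrays, with upper quartiles from 6.91 to 8.36 at 12 h. An array has no read depth, so precision is set by the number of arrays.

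Of the probe sets, 45259 had 1 gene symbol in the platform annotation, 1327 had several or none and 2800 were not listed. Each of 18239 genes was read from its probe set of highest mean over the 282 arrays. Group means were fitted per time over 94 arrays with limma 3.58.1 in R 4.3.3, without a replicate block, and p-values were adjusted by Benjamini-Hochberg over all genes within each comparison, with a threshold of 0.05. Concentrations of a compound were compared in the same fits, and times in 1 fit over all arrays. Intervals are 2 SE either side. Arrays with an upper quartile under 8 or a 3′ to 5′ difference of ACTB probe sets over 2 were called low-signal arrays. Promoter windows came from RefSeq's table for GRCh38.p14. Alternatives were a further quantile normalization, a filter of the dimmest 40% of genes, averaging the probe sets of each gene, array weights, separate fits of the compared arrays, a replicate block, methotrexate arrays averaged by number, leaving out low-signal arrays and leaving out each replicate. The fit was tested on simulated data before use. The genes, the gene lists and the genes named from those lists were chosen with earlier results of these data known. The genes named were all members, the 2 other genes of each list with the largest mean absolute difference at the higher concentrations at 6 h and the 3 genes most like each member.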

Additional observations from a re-analysis of the deposited data

Results flagged for a closer look

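The DMSO and methotrexate groups of each time, of 6 to 8 arrays, were examined for each of the 8 genes. Of these 48 readings, 11 had an array far from the others, where chance flags about 1 in 20. Readings of different genes share the same arrays and are not independent, so this count is a description only. At 24 h DMSO replicate 7, a low-signal array, was the lowest of 8 for KLF2 at 4.72, for TSC22D3 at 5.61 and for FOXO1 at 8.90. At 12 h DMSO replicate 1, also low-signal, was lowest for S1PR1 at 9.30 and BTG1 at 11.76. Among methotrexate arrays of 12 h, 1 low-signal array of replicate 2 was lowest for TSC22D3 at 6.02 and FOXO3 at 9.40. On full-signal arrays, KLF6 stood apart at 10.68 under methotrexate at 6 h and at 11.70 at 24 h, FOXO1 at 9.66 in DMSO replicate 7 of 6 h, and FOXO3 at 9.36 in DMSO replicate 2 of 6 h.

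The response at 24 h differed from that at 6 h in 10 of 112 tests. It was higher for TSC22D3 under doxorubicin (1.94), for KLF2, KLF6, TSC22D3 and FOXO1 under methotrexate (1.86, 1.09, 1.90 and 0.97) and for S1PR1 under trichostatin A (2.12). It was lower for KLF6, FOXO3 and BTG1 under H-7 (-1.92, -1.65 and -1.66) and for KLF2 under trichostatin A (-1.48). What part array signal had in these differences was not tested beyond the values without low-signal arrays.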

How the results depend on the processing

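The 6 h counts, 49 higher and 14 lower, kept within 1.5 times under every alternative run, and leaving out a replicate gave 36 to 51 and 10 to 14. At 12 h leaving out a replicate gave 6 to 24 higher and 6 to 8 lower, at 24 h 14 to 22 and 8 to 10, between concentrations at 6 h 14 to 17 and 5 to 6, and between times 5 to 8 and 4 to 5. Media against DMSO gave 2 at 6 h, 0 to 1 at 12 h and 0 at 24 h. Without low-signal arrays the higher calls were 32 at 12 h and 78 at 24 h, the time differences 28 and 12, and Media gave 2 and 4 at 12 and 24 h. Array weights gave 38 higher and 11 lower at 12 h, 75 higher at 24 h, 29 and 13 between times, and 1 and 5 for Media at 12 and 24 h. Fits of the compared arrays alone gave 21 higher and 4 lower at 12 h, 49 higher at 24 h, 19 and 10 between times, and 1 and 2 for Media. A further quantile normalization gave 16 higher at 12 h, 33 at 24 h and 1 for Media at 12 h. The cause of these moves was not tested. Averaging both KLF2 probe sets made each KLF2 difference tested here smaller, with 1.23 under methotrexate at 24 h, and lost the call under 0.01 µM vincristine.

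With a replicate block the counts were 45 and 12 at 6 h, 3 lower at 12 h and 8 higher at 24 h. It also lost the methotrexate calls of KLF6 and FOXO1 at 24 h and the FOXO1 time difference. No clear pairing of wells by equal numbers was seen: in 0 of 26 groups were all 3 correlations of deviations over 0.1. Their medians were 0.00, -0.02 and 0.02 at the 3 times in order. A weak shared effect could be missed by this check.

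Under 0.001 µM geldanamycin at 12 h, leaving out replicate 2 turned KLF6 to 0.12, FOXO1 to 0.19, FOXO3 to 0.16 and S1PR1 to 0.42, and the lowest values on leaving out another replicate were -1.39, -1.63, -1.82 and -1.80. Without low-signal arrays S1PR1 was 0.36, and with array weights it was 0.31 and KLF6 0.055. Under H-7 the time difference of BTG1 was 0.13 without low-signal arrays, 0.044 with array weights, and from -2.65 to 0.14 on leaving out a replicate. FOXO1 under 12.4 µM H-7 at 24 h was 0.038 after quantile normalization, and S1PR1 under 20.2 µM H-7 at 24 h was -0.19 with the mean of all probe sets. At 12 and 24 h the larger standard errors limit what could be called.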
